A study of Homo sapiens
Mus musculus with 3 samples.

Results

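The genes described here code for the core proteins that build and turn over actin filaments: beta-actin, the actin-binding peptides thymosin beta 4 and thymosin beta 10, profilin 1 and cofilin 1. They were chosen by gene identity, 5 in human and 5 in mouse, and make up 10 of the 60736 genes listed in each read table. The human genes were ACTB (ENSG00000075624), TMSB4X (ENSG00000205542), TMSB10 (ENSG00000034510), PFN1 (ENSG00000108518) and CFL1 (ENSG00000172757). The mouse genes were Actb (ENSMUSG00000029580), Tmsb4x (ENSMUSG00000049775), Tmsb10 (ENSMUSG00000079523), Pfn1 (ENSMUSG00000018293) and Cfl1 (ENSMUSG00000056201). All 10 passed the filter on low counts in every comparison given here. After thinning wells to 2000 reads, Tmsb4x and Tmsb10 did not pass it in the comparison of protocols in mouse cluster 2.

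Actin cycles between free monomers and filaments, and the filaments give a lymphocyte its cortex, its motility and the contact zone it forms with other cells. Beta-thymosins hold monomers in reserve, profilin hands monomers to growing filament ends, and cofilin severs and disassembles old filaments. These genes are highly expressed in most lymphocytes, and beta-actin is often used as a reference gene.

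Single cells of a mixture of 4 lymphocyte lines had been captured in nanowells on the ICELL8 system, and the 3′ ends of their transcripts were sequenced under a well barcode. The human lines were the T-cell leukemias Jurkat and TALL-104, and the mouse lines were the T-cell lymphoma EL4 and the hybridoma IVA12. There were 2 libraries of the standard protocol (3'DE) and 1 of a modified protocol (3'DE-UMI), which removes primers ahead of amplification and allows single cDNA molecules to be counted by unique molecular identifiers (UMIs). The labels name no treatment, and per the study's sample list the 3'DE-UMI library shared its cell mixture with 3'DE library 2 and not with 3'DE library 1.

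The read tables summed to 35581264, 109702878 and 44883618 reads for the libraries in the order 3'DE 1, 3'DE 2 and 3'DE-UMI, an order kept wherever 3 values are given, and the UMI table of the last held 3833017 UMIs. Clusters, 2 for each species, were formed from single-species wells without the genes tested. Mouse cluster 1 held 473, 497 and 470 wells, mouse cluster 2 held 449, 276 and 230, human cluster 1 held 406, 447 and 531, and human cluster 2 held 127, 37 and 26. The tables pair no identifier with a symbol, so the lines could not be checked against their markers and the clusters carry numbers in place of line names. The wells of human cluster 2 were shallow, with medians of 4507, 8338 and 5240 reads per well against 26535.5, 38656 and 17738 in human cluster 1. Pairs of libraries shared 529, 539 and 469 well barcodes, and single-species wells under a shared barcode were in the same cluster in 66.1%, 64.8% and 65.5% of cases, where the clusters' shares alone give 31.5%, 32.4% and 35.5%. Results are therefore also given without the wells of shared barcodes. Levels (CPM) are reads scaled to 1000000 reads of the well's own species, summed over the wells of a cluster, and CPM on UMIs where that is said.

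The first comparison was between the 2 clusters of each species. In mouse wells, both beta-thymosin genes and beta-actin were higher in cluster 1. Tmsb4x stood at 294, 138 and 197 CPM in mouse cluster 1 and at 6.86, 1.55 and 2.36 CPM in mouse cluster 2. The values of cluster 2 rested on 60, 24 and 24 reads. Tmsb10, the second beta-thymosin, stood at 176, 152 and 88.1 CPM in cluster 1 and at 1.37, 7.44 and 2.85 CPM in cluster 2, where it rested on 12, 115 and 29 reads. In UMIs the same split was seen, with 280 UMIs of Tmsb4x in cluster 1 and 3 in cluster 2, and 766 and 14 UMIs of Tmsb10. The log2 difference between the clusters was 6.27 ± 0.32 for Tmsb4x (SE, edgeR adjusted p = 2.52e-06) and 5.48 ± 0.44 for Tmsb10 (edgeR adjusted p = 2.39e-05), over 3 libraries a cluster. Without the wells of shared barcodes these were 6.33 and 5.72.

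Actb stood at 2500.4, 2663.7 and 3785 CPM in mouse cluster 1 and at 1189.5, 1704 and 2768 CPM in mouse cluster 2. It was higher in cluster 1 in each of the 3 libraries, by 2.10-fold, 1.56-fold and 1.37-fold. The log2 difference was 0.95 ± 0.18 (SE, edgeR adjusted p = 0.00261), and the call depended on the library as a block, since the adjusted p was 0.103 without it. So 3 of 5 mouse genes were called and all 3 were higher in cluster 1, in a comparison in which 38.9% of the 12100 genes tested were called and 19.7% were called higher in cluster 1. The median log2 difference was 0.95 over the 5 genes and -0.037 over all genes tested.

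The monomer-handling Pfn1 and the severing factor Cfl1 did not pass the test between the mouse clusters. Pfn1 stood at 1007, 1624 and 301 CPM in cluster 1 and at 704, 1072 and 523 CPM in cluster 2, higher in cluster 1 in both 3'DE libraries and lower in the 3'DE-UMI library. Its log2 difference was 0.34 ± 0.26 (SE, edgeR adjusted p = 0.334). Without the 3'DE-UMI library Pfn1 was called at 0.77 (edgeR adjusted p = 0.00362), in a fit that called 44.1% of the 11492 genes tested. Cfl1 stood at 93.0, 105.8 and 61.0 CPM in cluster 1 and at 76.7, 116 and 99.5 CPM in cluster 2, and its log2 difference was 0.043 ± 0.22 (SE, edgeR adjusted p = 0.90).

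**Figure D1:**
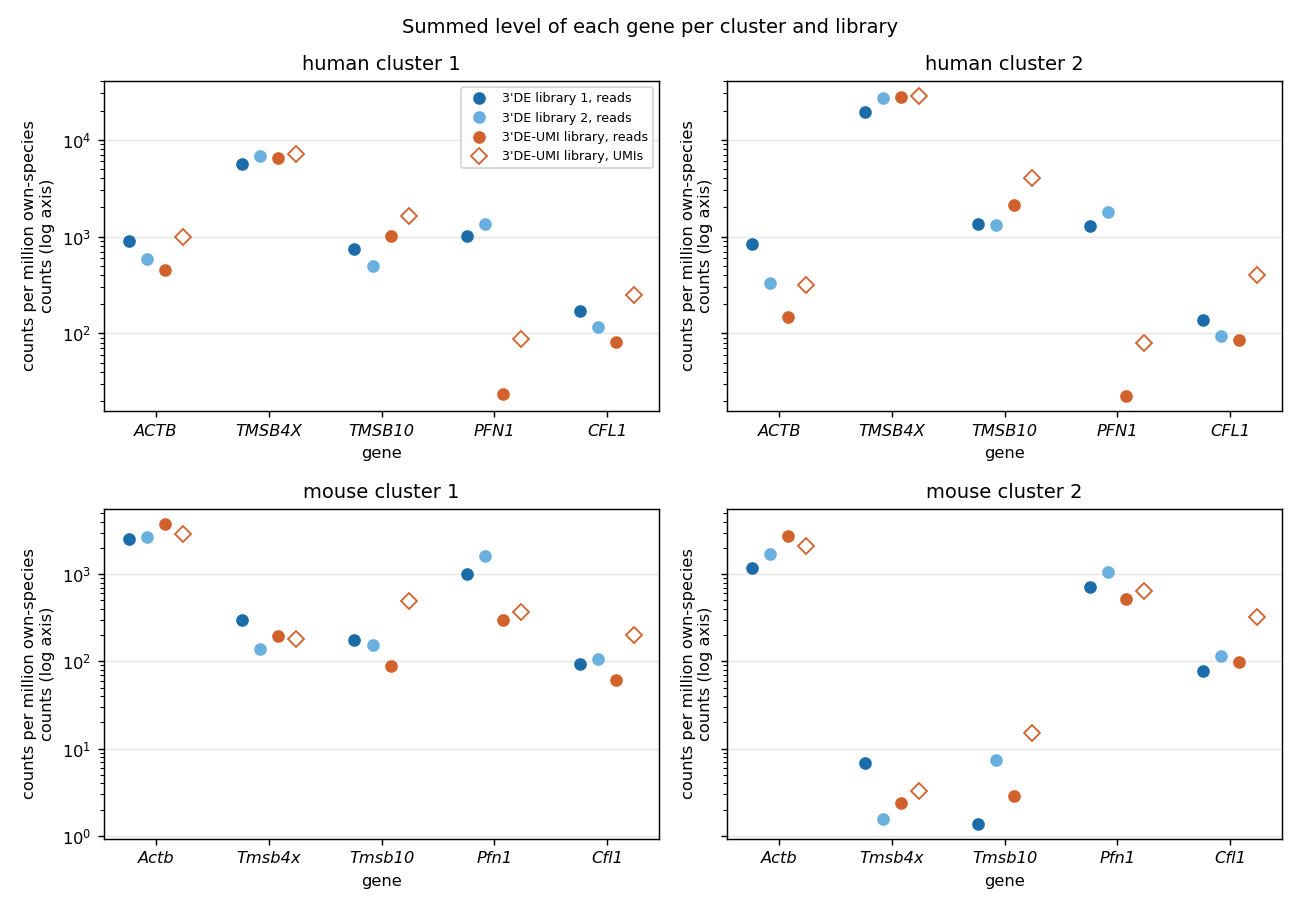
Summed level of each gene in CPM (log axis) per cluster, with 1 filled point per library in reads and an open diamond for the 3'DE-UMI library in UMIs. Tmsb4x and Tmsb10 sit at 88.1 CPM or above in mouse cluster 1 and at or below 7.44 CPM in reads in mouse cluster 2, and PFN1 sits at 23.9 and 22.5 CPM in the reads of the 3'DE-UMI library in the human clusters.

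In human wells the larger contrast was in TMSB4X, which was higher in cluster 2. It stood at 5626, 6832 and 6485 CPM in human cluster 1 and at 19204, 26657 and 27718 CPM in human cluster 2. The level in cluster 2 was 3.41-fold, 3.90-fold and 4.27-fold higher in the 3 libraries, and 3.95-fold higher in UMIs. The log2 difference of cluster 1 from cluster 2 was -1.70 ± 0.13 (SE, edgeR adjusted p = 3.48e-34). A p-value this small rests on a spread shared over genes and not on that of TMSB4X in 3 libraries. With DESeq2 the difference was -1.91 (adjusted p = 0.17), and without 3'DE library 1 it was -1.77 (edgeR adjusted p = 0.425), so the size held while the call depended on the tool and on 1 library. Without the wells of shared barcodes the log2 difference was -1.49 (edgeR adjusted p = 2.11e-12).

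TMSB10 showed the same order without passing the test. It stood at 751, 499.8 and 1012 CPM in human cluster 1 and at 1359, 1315 and 2124 CPM in human cluster 2. Its log2 difference was -0.86 ± 0.46 (SE, edgeR adjusted p = 0.294). ACTB stood at 910.0, 587 and 451 CPM in cluster 1 and at 829, 333 and 147 CPM in cluster 2, the last on 26 reads, and its log2 difference was 1.07 ± 0.65 (SE, edgeR adjusted p = 0.337). PFN1 and CFL1 had log2 differences of -0.039 ± 0.50 and 0.43 ± 1.20 (SE, edgeR adjusted p = 0.975 and 0.869). Of the 5 human genes 1 was called, where 3.59% of the 10750 genes tested were called and 1.26% were called lower in cluster 1. Over the 10750 genes the median log2 difference was 1.84, and over the 5 genes it was -0.039. All 5 thus lay below the median gene on this scale. That median depended on the setting, at 0.85 with wells thinned to 2000 reads and 0.84 without the replicate block. With ACTB and CFL1 above 0 and human cluster 2 shallow, the place of the 5 below it was not read as a shared shift. In simulated data the test recovered few of the changes set in this comparison or between protocols in human cluster 2, so a gene that did not pass there is not shown to be alike.

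The second comparison was between the protocols within a cluster. It had 2 libraries against 1, so the fit took the lone library to be as variable as the pair, and an exact permutation test of single values could not have passed the threshold. Profilin 1 was lower with the 3'DE-UMI protocol in both species. PFN1 stood at 1017 and 1360 CPM in human cluster 1 of the 3'DE libraries and at 23.9 CPM in that of the 3'DE-UMI library, on 364 reads. This was 42.5-fold below 3'DE library 1 and 56.8-fold below 3'DE library 2, the library of the same mixture. The log2 difference was -5.50 ± 0.42 (SE, edgeR adjusted p = 2.75e-05), against a log2 spread of 0.30 (SD) between both 3'DE libraries. PFN1 was the 1 gene of 5 that was called in this cluster, where 12.4% of the 13728 genes tested were called and 7.12% were called lower. Among the 1572 genes at 100 CPM or more in both 3'DE libraries, 7 had a lower ratio between the protocols. The median log2 ratio of these genes was -0.38. They were chosen on their 3'DE levels alone, which favours lower ratios, so the rank describes PFN1 and is not separate evidence. The difference was -5.37 without the wells of shared barcodes (edgeR adjusted p = 3.10e-27, again from a spread shared over genes). It was -5.72 without 3'DE library 1, which leaves 1 library a group and no test.

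In human cluster 2, PFN1 stood at 1293 and 1788 CPM in the 3'DE libraries and at 22.5 CPM in the 3'DE-UMI library. That last value rested on 4 reads. The log2 difference was -7.07 ± 1.42 (SE, edgeR adjusted p = 0.000596), in a fit whose median over all genes was -5.80. Of the 978 human genes at 100 CPM or more in both 3'DE libraries of this cluster, 185 had a lower ratio. Chosen in the same way on 3'DE levels, these genes had a median log2 ratio of -0.73. PFN1 was the 1 gene of 5 called, where 2.42% of 6039 genes were called and 2.20% were called lower. The other 4 human genes did not pass in this cluster. Counted in UMIs, PFN1 had 1 UMI there and the difference of -5.35 no longer passed (edgeR adjusted p = 0.0592).

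In mouse cluster 1, Pfn1 stood at 1007 and 1624 CPM in the 3'DE libraries and at 301 CPM in the 3'DE-UMI library. The log2 difference was -2.25 ± 0.36 (SE, edgeR adjusted p = 0.00139), and -2.51 without 3'DE library 1. Of the 1456 mouse genes at 100 CPM or more in both 3'DE libraries, 84 had a lower ratio. Chosen again on 3'DE levels alone, these genes had a median log2 ratio of -0.37. Pfn1 was the 1 gene of 5 called, where 12.0% of 11787 genes were called and 7.58% were called lower. In mouse cluster 2, Pfn1 stood at 704 and 1072 CPM against 523 CPM, and its log2 difference of -0.96 ± 0.64 did not pass (edgeR adjusted p = 0.466). The edgeR fit called 0 of the 5 genes in that cluster, also 0 at an unadjusted p under 0.05, and DESeq2 called 0. Of the 11630 genes, edgeR called 2.40% and DESeq2 2.61%.

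The difference between both protocol effects was tested as an interaction. For Pfn1 the effect was lower by 1.25 ± 0.36 on the log2 scale in mouse cluster 1 than in mouse cluster 2 (SE, edgeR adjusted p = 0.0333), in a fit that called 2.02% of 13254 genes, 1.16% in this direction. The adjusted p was 0.0613 with other size factors, 0.20 after thinning wells to 2000 reads and 0.688 with UMIs, while the size stayed between -1.04 and -1.39. None of the other 4 mouse genes passed this edgeR test. At an unadjusted p under 0.05 it counted 1 of 5, Pfn1, and DESeq2 called 1, with 0.377% of all genes called.

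None of the remaining genes passed the edgeR test between the protocols on all reads after the filter on low counts. After thinning to 2000 reads, ACTB (edgeR adjusted p = 0.0287) and TMSB10 (0.00472) were called in human cluster 1 and ACTB in human cluster 2 (0.0363). Of all genes tested, 27.9% and 16.4% were called in these 2 clusters after thinning. Tmsb10 in mouse cluster 1 was called without the filter (edgeR adjusted p = 0.0408) and with DESeq2, where 11.3% and 13.7% of all genes were called. TMSB4X stood at 5626 and 6832 CPM in human cluster 1 of the 3'DE libraries and at 6485 CPM in the 3'DE-UMI library, between them, and its log2 difference was 0.20 ± 0.22 (SE, edgeR adjusted p = 0.574). TMSB10 was above both 3'DE libraries, with 0.85 ± 0.30 (SE, edgeR adjusted p = 0.0786). ACTB and CFL1 lay below both, with -0.57 ± 0.33 and -0.68 ± 0.40 (SE, edgeR adjusted p = 0.27 and 0.283). In mouse cluster 1, Actb lay above both 3'DE libraries, with 0.42 ± 0.28 (SE, edgeR adjusted p = 0.343), Tmsb10 and Cfl1 lay below both, with -1.04 ± 0.36 and -0.84 ± 0.37 (SE, edgeR adjusted p = 0.0723 and 0.149), and Tmsb4x lay between them. The difference of Tmsb4x between the 2 libraries of one protocol, -1.10 on the log2 scale, was larger than its protocol difference of -0.28.

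The 3'DE-UMI library was counted both in reads and in UMIs, and for several of these genes the unit set the direction. Mouse Tmsb10 stood at 88.1 CPM in reads and at 490.3 CPM in UMIs in mouse cluster 1, a 5.56-fold difference within 1 library. Set against the reads of the 3'DE libraries (176 and 152 CPM), it was lower in reads and higher in UMIs, where the log2 difference of 1.5 ± 0.36 passed (SE, edgeR adjusted p = 0.0154). Cfl1 stood at 61.0 CPM in reads and 202 CPM in UMIs in that cluster, CFL1 at 80.9 and 251 CPM in human cluster 1, and ACTB at 451 and 993 CPM. All 3 moved from below both 3'DE libraries to above both, with log2 differences of 0.95 (edgeR adjusted p = 0.122), 0.93 (0.196) and 0.54 (0.397) that did not pass. TMSB10 was above both 3'DE libraries in either unit and passed in UMIs, at 1.51 ± 0.29 (SE, edgeR adjusted p = 0.0178). PFN1 and Pfn1 were lower in either unit, at -3.65 and -1.91 in UMIs in cluster 1 of their species (edgeR adjusted p = 0.00112 and 0.00908).

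**Figure D2:**
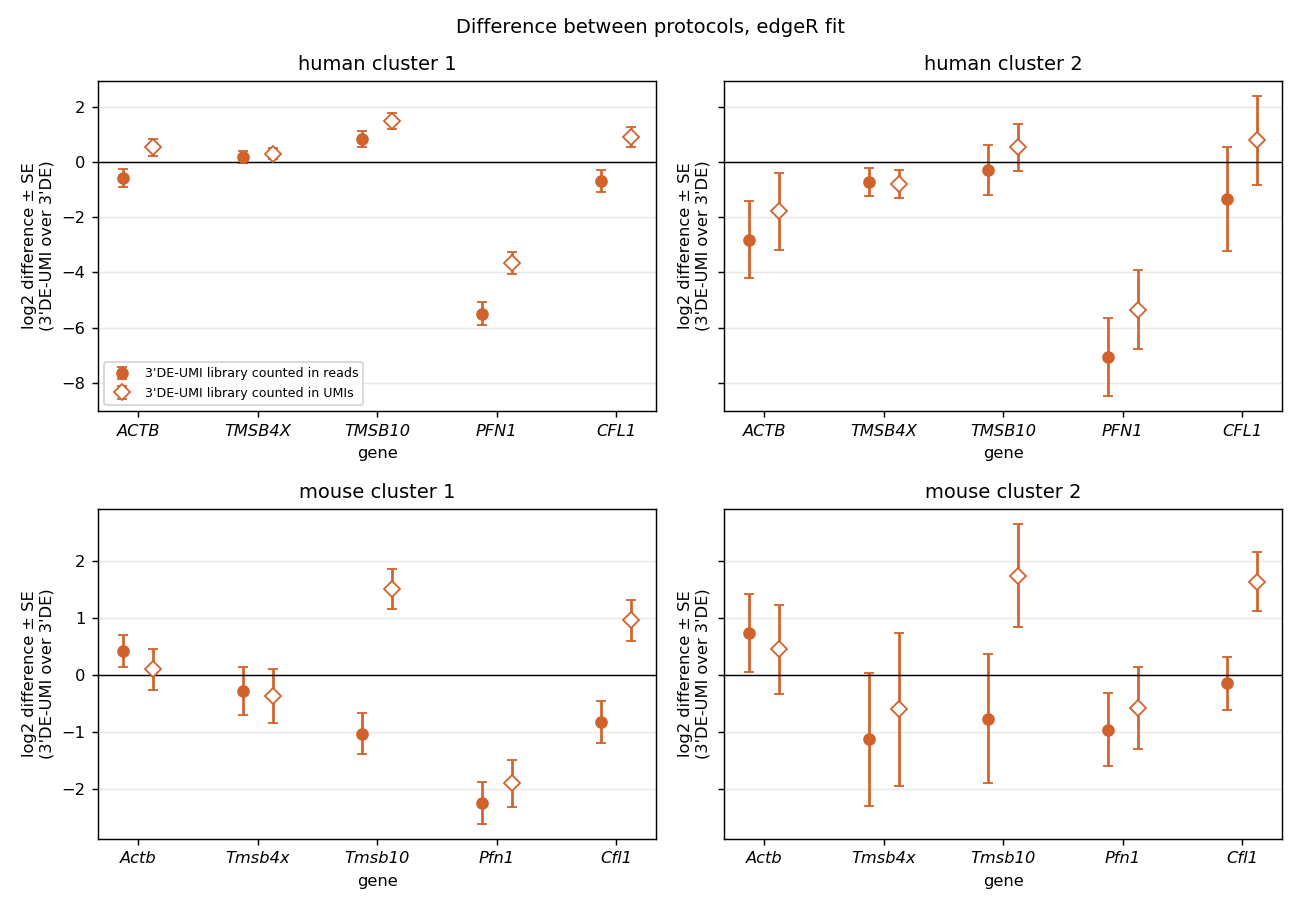
Log2 difference between protocols (3'DE-UMI over 3'DE) per gene and cluster with its SE, from the edgeR fit, with reads (filled) or UMIs (open) for the 3'DE-UMI library. PFN1 is at -5.50 and -3.65 in human cluster 1, and Tmsb10 moves from -1.04 to 1.5 in mouse cluster 1.

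The same contrast can be given as reads per UMI. Over kept human wells, the median gene with at least 100 UMIs had 16.4 reads per UMI (1530 genes, quartiles 13.2 and 18.6), and the median mouse gene had 13.5 (3308 genes, quartiles 11.2 and 15.3). Tmsb10 had 2.08 reads per UMI (1624 reads, 780 UMIs), and 59 of the 3308 mouse genes had fewer. Cfl1 had 3.46, with 98 genes below it, and CFL1 had 4.43, with 72 of 1530 human genes below it. ACTB had 6.30, TMSB10 8.59 and PFN1 3.79, the last on 97 UMIs. In contrast, Actb had 14.9 and Tmsb4x 12.7, within the quartiles of mouse genes, TMSB4X had 12.6, just under the lower quartile of human genes, and Pfn1 had 9.30. From mouse cluster 1 to 2 the ratio went from 3.51 to 3.41 for Cfl1, from 15.2 to 14.3 for Actb and from 9.59 to 9.01 for Pfn1. For Tmsb10 it went from 2.08 to 2.07 and for Tmsb4x from 12.8 to 8, on only 14 and 3 UMIs in cluster 2. Read and UMI tables had been made with different software and aligner versions, and the part of these in the ratios was not tested.

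**Figure D3:**
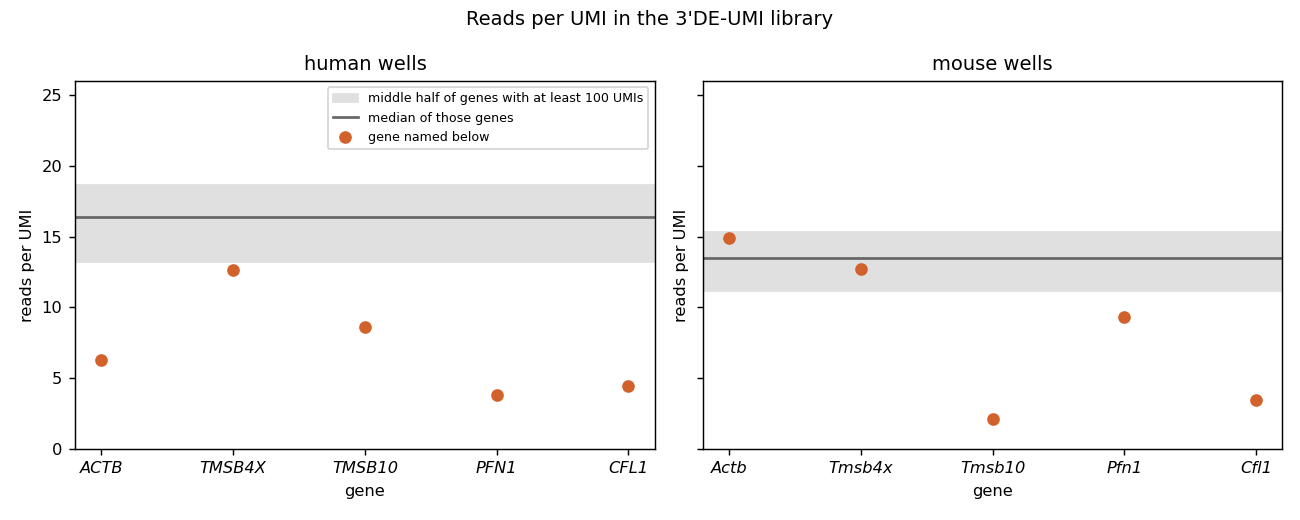
Reads per UMI of each gene in kept wells of its species in the 3'DE-UMI library, with the median (line) and the quartiles (band) of genes with at least 100 UMIs. Tmsb10 at 2.08 and Cfl1 at 3.46 lie below the band that Actb, at 14.9, falls in.

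Both units largely marked the same wells. Tmsb10 had reads and UMIs in 315 of 700 mouse wells, reads alone in 31 and UMIs alone in 1. For Cfl1 these were 339, 47 and 2 wells. PFN1 had both in 80 of 557 human wells, reads alone in 17 and UMIs alone in 0, and TMSB4X had both in 546 and neither in 11. The human genes have pseudogenes named after them, which could share their reads where the sequences are alike. No sequences were compared, mouse copies were not counted, and the list is of another assembly than the hg19 of the reads. RefSeq (GRCh38.p14) lists 14 pseudogenes named after ACTB, 10 after PFN1, 8 after TMSB4X, 8 after CFL1 and 2 after TMSB10. How reads with several matches were treated is not given in the sources used here, nor whether the tables had the unique-match filter that the methods describe for a separate quality assessment, so the levels are uncertain to that extent, and the part of these copies in the results was not tested.

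Detection was compared after each well had been thinned to 1000 reads, with exact binomial intervals that cover counting error only. PFN1 was found in 55.9% (95% interval, 50.9 to 60.8) and 77.4% (73.2 to 81.2) of wells of human cluster 1 in the 3'DE libraries and in 1.69% (0.778 to 3.19) in the 3'DE-UMI library. In mouse wells of the same libraries, which should hold no PFN1, the shares were 0.651%, 6.34% and 0%. Without thinning, the shares in human cluster 1 were 98.8%, 99.3% and 18.1% at medians of 26535.5, 38656 and 17738 reads per well, and those in mouse wells were 8.89%, 71.2% and 1.29% at medians of 23713.5, 31942 and 31408.5 reads. ACTB was found in 54.4%, 39.4% and 25.2% of thinned wells of human cluster 1, and TMSB4X in 98.3%, 98.2% and 95.1%.

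In mouse cluster 1, thinned wells had Pfn1 in 62.2%, 72.0% and 18.5% of cases and Actb in 83.3%, 83.9% and 87.9%. Tmsb4x was found in 18.2%, 10.5% and 11.5% of thinned wells of mouse cluster 1 and in 0.445%, 0.362% and 0.435% of mouse cluster 2, against 0.375%, 0.413% and 0.718% of human wells, which should lack it. Its share in mouse cluster 2 was at the level of that background. For Tmsb10 the shares were 14.4%, 15.3% and 6.38% in cluster 1, 0%, 2.90% (1.26 to 5.63) and 0.435% in cluster 2 and 0%, 1.45% and 0% in human wells. Before thinning, 1.56%, 23.2% and 6.09% of wells of mouse cluster 2 had a read of Tmsb10, against 2.44%, 21.9% and 1.44% of human wells. In the 3'DE-UMI library the mouse wells were also deeper, with a median of 33648.5 reads against 16457. The log2 difference of Tmsb4x between the mouse clusters thus compares cluster 1 with a level near background. That of Tmsb10 does so in the 3'DE libraries, while its share in cluster 2 of the 3'DE-UMI library was above background before thinning.

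**Figure D4:**
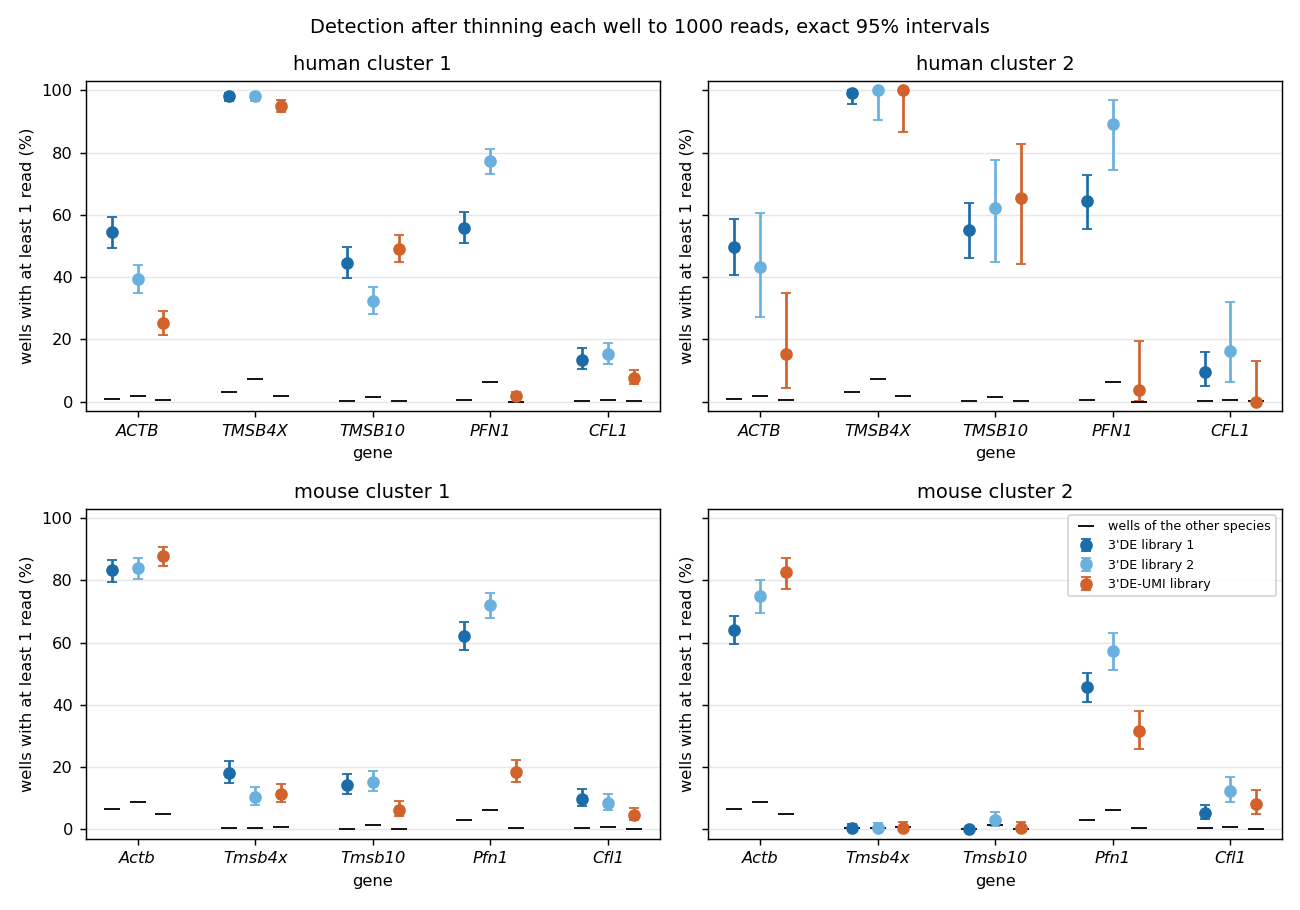
Share of wells with at least 1 read of each gene after thinning to 1000 reads, with exact 95% intervals per library, and the share in wells of the other species as black dashes. PFN1 falls to 1.69% in human cluster 1 of the 3'DE-UMI library, and Tmsb4x in mouse cluster 2 lies on its dashes.

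The 5 genes together took 0.848%, 0.940% and 0.805% of human reads in cluster 1 and 2.28%, 3.02% and 3.01% in cluster 2. In mouse wells they took 0.407%, 0.468% and 0.443% of mouse reads in cluster 1 and 0.198%, 0.290% and 0.340% in cluster 2. In each library the share was higher in human cluster 2 and in mouse cluster 1. In each species 1 gene made up most of the sum. TMSB4X alone took 1.92%, 2.67% and 2.77% of human reads in cluster 2, while ACTB was lower there than in cluster 1. Actb alone took 0.250%, 0.266% and 0.379% of mouse reads in cluster 1. Between protocols, the log2 ratio of 3'DE-UMI to mean 3'DE was -0.15 for human cluster 1 (SD between the 3'DE libraries, 0.11), 0.20 for human cluster 2 (SD, 0.29), 0.022 in mouse cluster 1 (SD, 0.14) and 0.50 in mouse cluster 2 (SD, 0.39). For single genes in mouse cluster 1 this ratio was -2.09 for Pfn1 and 0.55 for Actb. With 2 libraries against 1, these ratios were not tested. In human cluster 1 the sign of the summed ratio turned with UMIs, to 0.18.

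**Figure D5:**
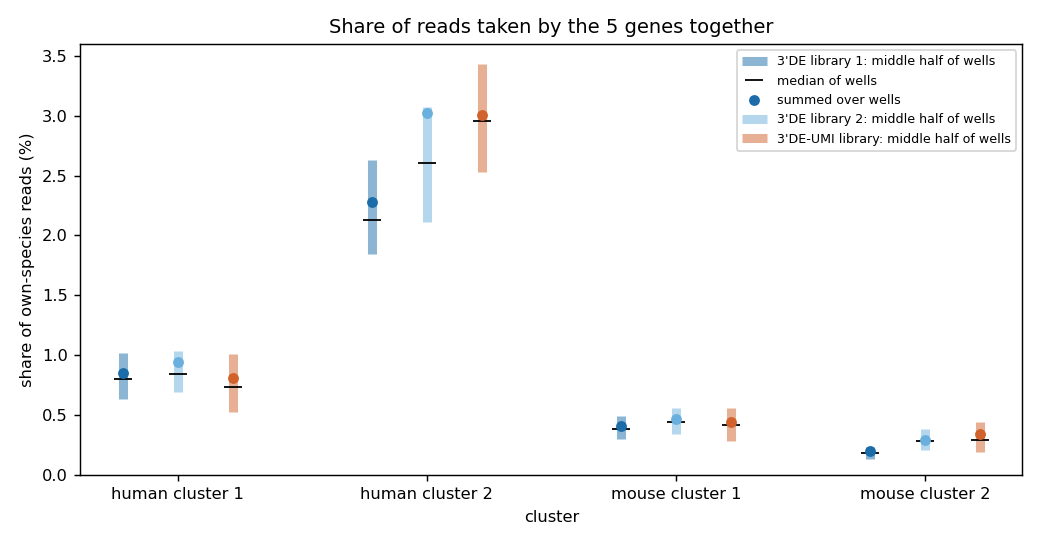
Share of own-species reads taken by the 5 genes together, per cluster and library, summed over wells (points) and as the median (dash) and quartiles (bar) of single wells. Human cluster 2 lies between 2.28% and 3.02% and human cluster 1 between 0.805% and 0.940%.

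The spread of TMSB4X from well to well was described by its variance over its mean. In wells thinned to 2000 reads, its variance was 3.31, 3.61 and 5.21 times its mean count of 11.2, 11.3 and 12.4 reads in human cluster 1. Reads of 1 molecule are counted several times, which raises this ratio, so it was not read as a difference between cells. For Actb the ratio was also highest with the 3'DE-UMI protocol in mouse cluster 1, at 1.76, 2.11 and 3.804, as for ACTB in human cluster 1, at 1.44, 1.43 and 2.51. No TMSB4X was found in 0.495%, 0.456% and 3.21% of thinned wells of human cluster 1.

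Across the wells of a cluster, pairs of the 5 genes were described by Pearson's r on counts that were mostly low. Low counts pull r towards 0, so for most pairs a low r does not show that the genes vary apart. Over 10 gene pairs and 3 libraries, r in thinned wells ran from -0.10 to 0.29 in human cluster 1 and from -0.08 to 0.20 in mouse cluster 1, with medians of 0.02 and 0.04. In human cluster 2 it ran from -0.48 to 0.48, with 21 of 26 values within 0.2 of 0, and in mouse cluster 2 from -0.079 to 0.16. In human cluster 1 the highest was TMSB4X with TMSB10 in 3'DE library 1 (r = 0.29, 404 wells). The 6 sums of a species are 2 clusters in 3 libraries, so r across them restates the differences given above and is not separate evidence. The thymosin genes had r = 0.83 in human and 0.92 in mouse, and profilin with cofilin had r = 0.72 and 0.79. Other pairs differed between the species, with r = 0.85 in human and -0.25 in mouse for beta-actin with cofilin and -0.64 and 0.65 for beta-actin with thymosin beta 10. Of the 911 mouse genes at 100 CPM or more that were compared, ENSMUSG00000061232 was closest to Tmsb10 (r = 0.999), and of 460 human genes ENSG00000129559 was closest to PFN1 (r = 0.987). Each of these is the highest r among all genes compared, over only 6 sums. The tables do not pair these identifiers with names.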

How the data were processed

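Deposited values were raw counts made by the authors: reads per gene and well, with mappa and STAR 2.7.0b on a combined hg19 and mm10 reference (Cell Ranger 1.2.0 format), and, for the 3'DE-UMI library, UMIs with Drop-seq tools and STAR 2.4.2a. The methods describe downsampling with seqtk, and whether the deposited tables were made from those reads is not given in the sources used here. The 10 genes, the lists and the tests were chosen with earlier results of these data known.

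Wells needed 1000 reads and 200 genes, and were mixed when 10% or more of the reads came from the other species. Genes were divided at random into 2 sets. Wells were clustered on each set with scanpy 1.11.5 (1000 variable genes, 20 components, 15 neighbours, resolution 0.1), and each set was tested on clusters of the other. The sets placed 99.6% of mouse and 99.7% of human wells alike. Reads were summed per cluster and library and fitted in edgeR 4.0.16 (filterByExpr, TMM, quasi-likelihood, two-sided, Benjamini-Hochberg, threshold 0.05), with the library as block between clusters. The test was checked on simulated data, where it recovered few changes between human clusters and in human cluster 2. DESeq2, other size factors, filters, thinning, UMIs and left-out libraries were alternatives. Libraries are the replicates, and no source says that they were separate cultures beyond the mixtures named. The p-values rest on a spread between libraries that the fit estimates with information shared over genes. Very small values thus do not measure the spread of 1 gene over so few libraries. Genes named are all members and, for likeness, the closest gene. Intervals cover counting error only.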

Additional observations from a re-analysis of the deposited data

Results flagged for a closer look

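The protocol effect on Pfn1, the mouse profilin 1 gene, differed between the mouse clusters by a test of the difference itself, at -1.25 on the log2 scale (edgeR adjusted p = 0.0333 over 13254 genes). The 3'DE-UMI side was 1 library, taken to vary like the 3'DE libraries, and the edgeR adjusted p was 0.0613 with other size factors, 0.20 after thinning and 0.688 with UMIs. It was below 0 in both clusters, and with 1 library left out it was -1.36 and -1.14, without a test.

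Outside the main measurement, the UMI table held 1543 barcodes that are absent from the read table, and 2.42% of its UMIs were under them. Of the 10 genes, 9 had more UMIs there than the 3 counts a count of 0 allows: TMSB4X had 176, Actb 169, ACTB 27, TMSB10 25, Pfn1 23, Tmsb10 13, Tmsb4x 12, Cfl1 6 and CFL1 5. These were 0.948% to 3.69% of each gene's UMIs.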

How the results depend on the processing

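Of 64 counts of called genes under the alternatives, 51 stayed within 1.5 times the count given, as did 31 of 32 ratios of the summed share within the spread between 3'DE libraries. The share of all genes tested that the same setting called is given in brackets. In the comparison of human clusters 0 genes were called with DESeq2 (14.7%). With 1 library left out 0 to 1 were called, 0 of them without 3'DE library 1 (0.273%). In mouse cluster 1 the protocols differed in 2 genes with DESeq2 (13.7%), 2 without the low-count filter (11.3%) and 2 with UMIs (9.15%). In human cluster 1 they differed in 3 after thinning (27.9%) and 2 with UMIs (5.90%). Human cluster 2 gave 2 after thinning (16.4%) and 0 with UMIs (0.225%). The interaction gave 0 with other size factors (1.98%), 0 after thinning (0.238%) and 0 with UMIs (0.0552%). It gave 2 without the wells of shared barcodes (2.26%), where Tmsb4x had 0 reads in mouse cluster 2 of a library. The summed share of human cluster 1 moved from -0.15 to 0.18 with UMIs.

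Directions turned with UMIs for Tmsb10 (1.5 and 1.74) and Cfl1 (0.95 and 1.63) in mouse clusters 1 and 2, for ACTB in human cluster 1 (0.54), for CFL1 in human clusters 1 and 2 (0.93 and 0.80) and for TMSB10 in human cluster 2 (0.54, and 0.23 after thinning). PFN1 between human clusters turned to 0.11 without the low-count filter and 0.56 without shared barcodes. In the interaction, after thinning Tmsb4x was -1.07 and Tmsb10 4.68, and Tmsb10 was 0.33 without shared barcodes. With 1 library left out, values ran from -0.14 to 0.28 for Cfl1 between mouse clusters, -0.58 to 0.27 for PFN1 between human clusters, -0.79 to 0.45 and -1.97 to 0.53 for the protocol difference of Tmsb4x in mouse clusters 1 and 2, -1.45 to 0.61 for Tmsb10 in mouse cluster 2, and -0.047 to 1.13 and -1.88 to 0.63 for the interactions of Tmsb4x and Tmsb10. The causes were not tested. Without the replicate block, 2 of the 3 mouse genes were called between clusters (26.4% of all genes against 38.9%), Actb not (edgeR adjusted p = 0.103). In human wells 1 gene was called (1.41% of all genes against 3.59%). No paired analysis of the protocols was possible because the lone 3'DE-UMI library shares its mixture with 1 of the 3'DE libraries, which gives a single pair. Over the alternatives the share of all genes called moved by over 1.5 times except between protocols in mouse cluster 1 (9.15% to 13.7%): it was 25.8% to 47.5% between mouse clusters, 0.273% to 14.7% between human clusters, 1.58% to 2.85% between protocols in mouse cluster 2, 5.90% to 27.9% between protocols in human cluster 1, 0.225% to 16.4% in human cluster 2 and 0.0552% to 2.26% for the interaction in mouse wells.

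A marker-based assignment and the mitochondrial limit were not run, as no symbols were paired with identifiers. Human cluster 2 of the 3'DE-UMI library held 26 wells and 177464 human reads, which limits its values, and reads are not independent molecules.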
